A study of Pomacea canaliculata with 36 samples.

Results

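The comparison described here is that of the eye stalk 12 days after amputation (12dpa) with the eye stalk of intact animals (Intact) in the apple snail *Pomacea canaliculata*, chosen by the labels of the libraries and covering 8 of the 36 RNA sequencing libraries of the study, 4 in each group. The study followed regeneration over 9 groups, Intact and 8 times after amputation, with 4 libraries in each. The Intact group is eye stalk with no amputation and the 12dpa group is eye stalk sampled 12 days after its removal. The 9dpa and 15dpa groups, sampled 9 and 15 days after amputation, are used beside them as the neighbouring times. All groups share the species, the tissue label and polyadenylated RNA extracted with Trizol; the labels give no strain, age or agent, and they do not say whether a library came from 1 animal, from pooled animals or from separate animals. The p-values below therefore speak only to the spread among these libraries, and that spread may be technical.

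The apple snail has a camera-type eye, with a cornea, a lens and a retina in a closed cup, carried near the tip of a stalk, and it can regrow the whole eye after the stalk is cut. In animals that regrow such organs, wound closure is followed by cell division and then by the formation of the specialised cell types. Photoreceptors and lens cells each make large amounts of a few proteins, so the RNA of an eye can be dominated by a small number of genes. The deposited identifiers are locus symbols with no product name, and no protein sequence was used here, so roles are not given for the genes below, and the tissue label could not be checked against photoreceptor, nerve or skin markers.

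The Intact libraries held 22403557 to 25688319 counts and the 12dpa libraries 28116602 to 32928737, so every 12dpa library was deeper than every Intact library. Levels are given as counts-per-million values (CPM) after scaling between libraries. 1 CPM was worth 23.1 to 27.3 counts in the Intact libraries and 27.9 to 34.0 counts in the 12dpa libraries. Replicates were alike in both groups, with a median SD of log2 CPM within a group of 0.185 in Intact and 0.193 at 12dpa. No library was found to be a second copy of another: the lowest chi-square per degree of freedom among the 12 pairs within these groups was 11.3.

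The eye stalk at 12dpa differed from the intact stalk in most of the genes tested, mostly by small amounts. Changes of 2-fold or more were more often falls than rises, and many of the falls were of genes next to each other in the order of tested genes. Of 17341 tested genes, 9714 (56.0%) were called at 12dpa against Intact at an adjusted p below 0.05 by the quasi-likelihood test of edgeR with Benjamini-Hochberg adjustment. There were 4747 genes called higher and 4967 called lower. The median log2 fold change of all tested genes was -0.02, and the median size of a called change was 0.77 on the log2 scale. Less than 2-fold changes made up 6064 of the calls, or 62.4%. At 2-fold or more, 1556 genes (8.97% of those tested) rose and 2094 (12.1%) fell. At 8-fold or more the counts were 122 higher and 196 lower. The 4 libraries of one group lay wholly above or below the 4 of the other for 8601 genes (49.6%), 4249 of them higher at 12dpa and 4352 lower. In bulk tissue, fewer cells of a type and less RNA per cell cannot be told apart, which holds for every fall below.

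**Figure D1:**
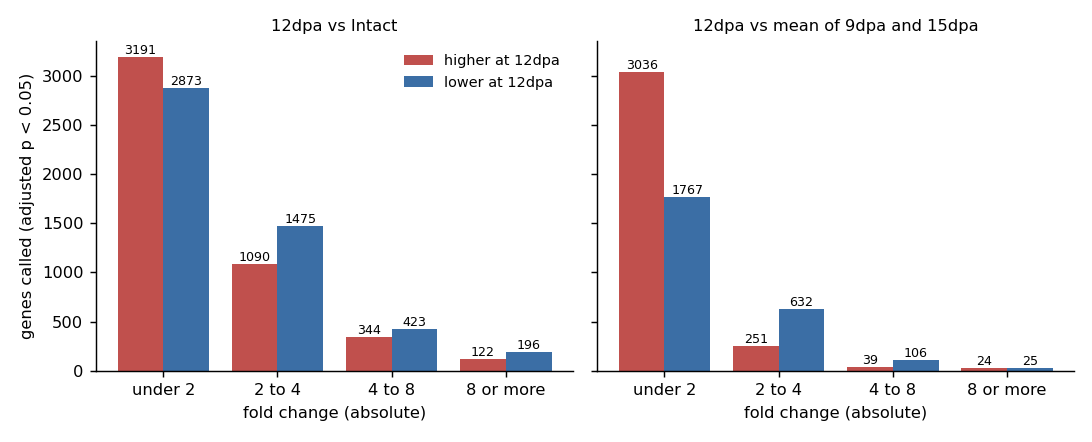
The bars show how many genes were called higher or lower at 12dpa, by the size of the fold change, against Intact (left) and against the mean of 9dpa and 15dpa (right). Most calls are changes of less than 2-fold (3191 higher and 2873 lower against Intact), and lower calls outnumber higher ones in every class from 2-fold up, by 196 to 122 on the left and 25 to 24 on the right at 8-fold or more.

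LOC112575956 had the largest rise of the genes taken by the naming rule, which asks for a call, libraries that do not overlap and a mean of 5 CPM or more in one of the groups. Its level was 9.71, 1.30, 10.9 and 7.91 CPM in 12dpa replicates 1 to 4, while a single count, 0.0368 CPM in replicate 2, was found in the whole Intact group. Replicate 2 was the low library of the 12dpa group, and still lay above every Intact library. The 12dpa libraries held 890 counts of it in all, a depth-corrected ratio of 742.4 to Intact with a 95% counting interval of 132.9 to 29354.9 that covers counting error only. The edgeR log2 fold change was 9.01 ± 1.15 (SE; Benjamini-Hochberg adjusted p = 1.05e-07), a value that depends on the small count added by the fit, and it was 10.63 without Intact replicate 2. Its mean was 3.01 ± 2.17 CPM on day 9 and 10.5 ± 4.12 CPM on day 15 (SD, n = 4 each), and 12dpa was not called different from their mean (edgeR, Benjamini-Hochberg adjusted p = 0.458).

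The second rise, LOC112564790, rested largely on 1 library. Its level at 12dpa was 0.735, 19.9, 0.323 and 1.90 CPM in replicates 1 to 4, against 0, 0, 0 and 0.0733 CPM in Intact. Replicate 2 held most of the 766 counts of the 12dpa group, and all 4 of its libraries lay above the 2 counts of Intact, both in replicate 4. The ratio of counts was 319.5, with a 95% counting interval of 88.1 to 2642.7. The edgeR log2 fold change of 7.93 ± 1.66 (Benjamini-Hochberg adjusted p = 0.000107) became 5.36 without 12dpa replicate 2, with an adjusted p of 0.0147, and 10.31 without Intact replicate 4. Libraries of other times overlapped 12dpa, among them 0.985 to 2.83 CPM on day 1, up to 3.99 CPM on day 9 and up to 2.54 CPM on day 21.

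The 2 largest falls differed in how alike the Intact libraries were. LOC112563154 had 10.9, 36.3, 3.15 and 91.5 CPM in Intact replicates 1 to 4, and then 0.224, 0.206, 0.143 and 0.0333 CPM at 12dpa. The groups did not overlap, although the Intact libraries spread widely. Its edgeR log2 fold change was -7.81 ± 1.36 (Benjamini-Hochberg adjusted p = 1.28e-05), and -6.75 without Intact replicate 4. LOC112562198 was far more even, with 25.3, 13.0, 14.9 and 11.0 CPM in the Intact libraries falling to 0.0639, 0.206, 0.179 and 0.233 CPM. Its edgeR log2 fold change was -6.52 ± 0.287 (Benjamini-Hochberg adjusted p = 7.18e-22).

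The 2 genes also stood differently at the neighbouring times. LOC112563154 averaged 2.98 ± 2.84 CPM on day 9 and 7.41 ± 6.56 CPM on day 15, and 12dpa stood apart from their mean by -4.90 ± 1.51 on the log2 scale (edgeR, Benjamini-Hochberg adjusted p = 0.0120). Its libraries of day 1, at 0.0518 to 0.294 CPM, overlapped those of 12dpa, as did single libraries of days 3, 6 and 9. LOC112562198 was low on both sides of 12dpa and at the end of the series, with 0.139 ± 0.0446 CPM on day 9, 0.102 ± 0.0578 CPM on day 15 and 0.161 ± 0.0588 CPM on day 28 (SD, n = 4 each).

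Genes found in one group alone were few and weak. There were 7 tested genes with no count in any Intact library and counts in all 4 of the 12dpa libraries, the most abundant at a mean of 2.77 CPM. The other direction held 4 genes, the most abundant at 1.16 CPM.

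The share of genes that changed, and the side to which they moved, went with abundance. By mean level over all libraries, of the 1735 least abundant tested genes 36.9% were called, 25.0% were at least 2-fold lower and 9.97% at least 2-fold higher, with a median log2 fold change of -0.41. Of the 1734 most abundant 69.6% were called, 4.90% were at least 2-fold lower and 8.59% at least 2-fold higher, with a median of 0.08. The part of depth in these shares was not tested. Of the 100 genes most abundant over both groups, 57 rose, 30 fell and 13 were not called. Their median log2 fold change was 0.34, and 7 of the 30 falls were of 8-fold or more.

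The most abundant RNAs changed places between the groups. The genes of this paragraph and the next were chosen for their abundance and change after their values were seen, so their tests are descriptions. LOC112556452 had 16557, 23423, 30781 and 23811 CPM in Intact and 68372, 51688, 57880 and 78958 CPM at 12dpa. The gene LOC112556451 followed it, from 13140, 19924, 25925 and 20718 CPM to 62374, 45405, 51975 and 75034 CPM. No 12dpa library overlapped the Intact range for either gene, and the edgeR log2 fold changes were 1.44 ± 0.222 and 1.56 ± 0.216. Together they took 4.56 ± 1.15% of all counts in Intact and 12.0 ± 1.92% at 12dpa (SD, n = 4 each). The share was not particular to 12dpa, at 10.7% at 9dpa, 11.6% at 15dpa and 15.3% at 28dpa. LOC112574681 rose from 2480 ± 575 to 11362 ± 2714 CPM (edgeR log2 fold change 2.20 ± 0.221, Benjamini-Hochberg adjusted p = 6.76e-10). LOC112575079 rose from 2594 ± 222 to 9619 ± 996 CPM (log2 fold change 1.89 ± 0.175), and its mean was 12433 CPM at 3dpa. None of these rises was called different at 12dpa from the mean of 9dpa and 15dpa. The adjusted p-values were 0.291, 0.625, 0.325 and 0.524 in the order given (edgeR, Benjamini-Hochberg). The 10 most abundant genes of each library held 11.5 ± 0.647% of its counts in Intact and 18.1 ± 2.58% at 12dpa. They held 15.5 ± 1.97% at 9dpa and 17.4 ± 1.47% at 15dpa. Whether near-identical copies shared reads among these genes was not tested.

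Abundant RNAs of the intact stalk that were low at 12dpa did so in every library. LOC112576458 had 11674, 7713, 8280 and 6998 CPM in Intact and 252, 179, 302 and 292 CPM at 12dpa. Its edgeR log2 fold change was -5.08 ± 0.987 (Benjamini-Hochberg adjusted p = 6.97e-05). LOC112559381, LOC112555734 and LOC112563139 averaged 4744, 4605 and 4598 CPM in Intact, and 807, 523 and 393 CPM at 12dpa. Their 12dpa libraries lay below every Intact library, with edgeR log2 fold changes of -2.55 ± 0.704, -3.14 ± 0.668 and -3.55 ± 0.616. At 9dpa the same 3 genes averaged 91.0, 36.5 and 34.9 CPM and at 15dpa 633, 432 and 357 CPM; 12dpa lay above 9dpa in every library. The tests of 12dpa against 15dpa did not call a difference (edgeR, Benjamini-Hochberg adjusted p = 0.729, 0.775 and 0.878), with 95% intervals of the log2 difference from -1.01 to 1.71, -0.99 to 1.54 and -1.003 to 1.28.

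The most abundant gene of the intact stalk, LOC112562530, shows the limit of the test. It had 35627, 27418, 26656 and 26279 CPM in Intact and 12506, 8293, 18803 and 21092 CPM at 12dpa. The groups did not overlap, yet the edgeR log2 fold change of -0.93 ± 0.594 was not called (Benjamini-Hochberg adjusted p = 0.185). With only the 8 libraries of the 2 groups in the fit, the adjusted p was 0.0145 and the log2 fold change -0.92.

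**Figure D2:**
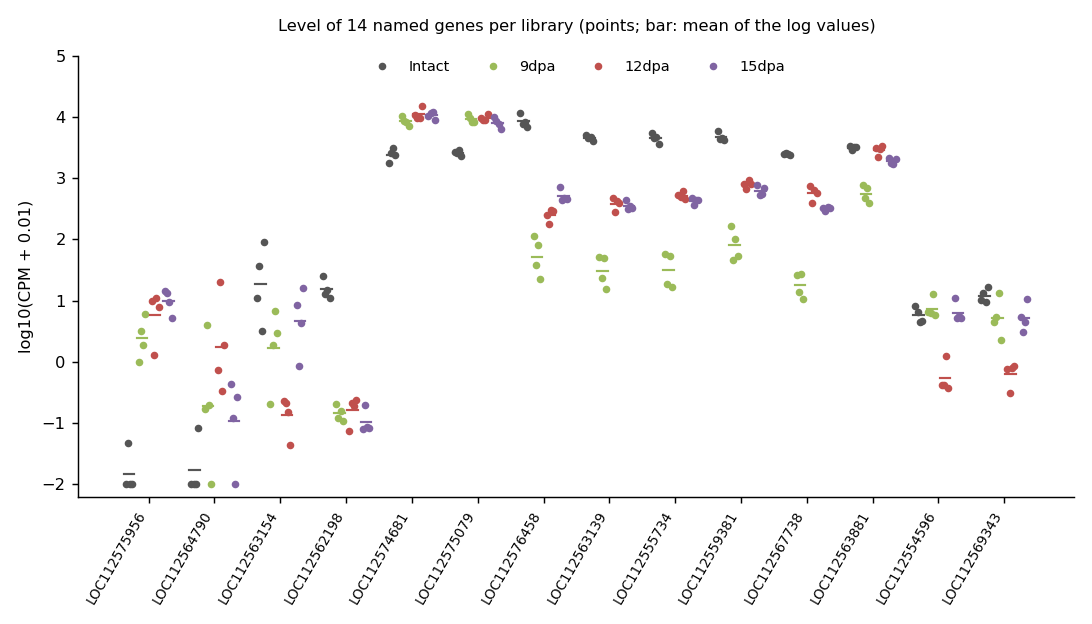
Levels of 14 of the named genes are shown as log10 of CPM plus a small constant, with a point for each of the 4 libraries of Intact, 9dpa, 12dpa and 15dpa and a bar at the mean of the log values. The 12dpa points of LOC112562198 lie between 0.0639 and 0.233 CPM, below all Intact points, while those of LOC112574681 lie above all Intact points.

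Other abundant genes were measured precisely enough to bound their change. LOC112554522 had 3472 ± 272 CPM in Intact and 3470 ± 192 CPM at 12dpa, with a 95% interval of the log2 difference from -0.17 to 0.17. LOC112563881 had 3176 ± 169 and 2932 ± 496 CPM, with an interval from -0.48 to 0.25, and was not called (edgeR, Benjamini-Hochberg adjusted p = 0.603). Its level at 9dpa was 583 ± 179 CPM and at 15dpa 1928 ± 209 CPM, both below 12dpa. The change of LOC112562047 from 5379 ± 282 to 6824 ± 358 CPM was called although small, at a log2 fold change of 0.34 ± 0.0718 (edgeR, Benjamini-Hochberg adjusted p = 0.000152).

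Against the mean of 9dpa and 15dpa, 5880 genes (33.9%) were called at 12dpa, of which 3350 were higher and 2530 (14.6%) lower. The Intact mean does not enter this contrast, though the Intact libraries take part in its filter, scaling and estimate of spread. Differences of 2-fold or more were more often falls: 763 genes were at least 2-fold lower and 314 at least 2-fold higher. At 8-fold or more the counts were nearly even, with 25 lower and 24 higher. The higher share of the calls turned with the scaling, from 57.0% to 39.9% when library size alone was used, with 2199 genes called higher. Against 9dpa alone 5071 genes were called and against 15dpa alone 4903. The contrasts of 9dpa and of 15dpa with Intact, which share the Intact libraries with that of 12dpa, called 7361 and 7770 genes. That 12dpa had more calls than either of its neighbours was not tested as a difference.

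The order of distances from Intact depended on the genes used. Over all tested genes the 12dpa libraries lay at a mean Euclidean distance of 142.1 ± 4.75 (SD, n = 4), on log2 CPM, from the Intact libraries, those of 9dpa at 135.8 and those of 15dpa at 129.1. Over the 500 genes of largest variance the 12dpa libraries lay at 61.2 ± 5.27, between 9dpa at 74.0 ± 4.08 and 15dpa at 59.9 ± 2.64. The Intact libraries lay at 30.2 from one another over those 500 genes and at 69.8 over all genes.

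The genes that set 12dpa apart from its neighbours were chosen by that contrast, and their values are a description. LOC112554596 had 0.415, 0.412, 1.25 and 0.366 CPM at 12dpa, against means of 5.94 CPM in Intact, 7.82 CPM on day 9 and 6.71 CPM on day 15. Its 12dpa libraries lay below all those of the other 3 groups. It was also low before day 9, at 0.551 to 2.70 CPM on day 1, 0.799 to 2.33 CPM on day 3 and 0.771 to 3.30 CPM on day 6, which overlap 12dpa. LOC112569343 stood at 0.767, 0.294, 0.789 and 0.831 CPM at 12dpa, against means of 12.4 CPM in Intact, 6.41 CPM on day 9 and 5.85 CPM on day 15, and its libraries of day 1 (from 0.697 CPM) and day 3 (from 0.761 CPM) overlapped 12dpa. The edgeR log2 differences from the mean of 9dpa and 15dpa were -3.59 ± 0.572 and -3.20 ± 0.667. In the other direction, LOC112562606 stood at 2.33, 10.8, 3.30 and 13.2 CPM at 12dpa, with every library of Intact, 9dpa and 15dpa at or below 1.83 CPM. Later libraries reached that range again, with 0.0400, 0.269, 3.56 and 8.73 CPM on day 21 and 0.0829, 5.43, 3.12 and 0.0815 CPM on day 28. Its log2 difference from the 2 neighbouring times was 3.72 ± 0.767, and from Intact 3.85 ± 1.00, or 7.01 without Intact replicate 4. LOC112567738 averaged 588.8 ± 142 CPM at 12dpa, above its 19.3 ± 8.24 CPM on day 9 and 319 ± 20.2 CPM on day 15, and below 2479 ± 92.5 CPM in Intact. Against 15dpa alone it was not called (edgeR, Benjamini-Hochberg adjusted p = 0.155), although the libraries did not overlap. They stood at 401 to 737 CPM at 12dpa and at 290 to 337 CPM at 15dpa. The log2 difference was 0.88 ± 0.460, so the 2 times are not taken as alike. The estimate of spread was shared by all groups, and its part in this result was not tested. The mean of LOC112567738 was higher later, at 794 CPM on day 21 and 1517 CPM on day 28.

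Genes chosen on part of the replicates mostly had the same direction in the others. Genes were called by 2-fold or more at 12dpa against Intact in a fit to replicates 1 and 2 of all groups, and measured on replicates 3 and 4. The 1378 higher genes had a median log2 ratio of 1.40 at 12dpa, and 97.5% of them were higher again. The 2048 lower genes had a median of -1.32, and 97.5% were lower again. A change of 2-fold or more, as in the choice, was kept by 76.6% of the higher and 68.6% of the lower genes. The shares over all tested genes were not worked out. As the libraries of a group may be technical repeats, these shares speak only to the spread among libraries. The same genes, measured on the same Intact replicates, had medians of 1.07 and -1.01 at 9dpa, of 1.06 and -0.91 at 15dpa, and of 0.62 and -0.47 at 28dpa. Of the higher genes 95.9% were also higher at 9dpa and 96.0% at 15dpa. Of the lower genes 86.3% and 85.0% were lower at these times. At 1dpa the medians were 1.24 and -2.44, so that the lower genes lay farther from Intact 1 day after amputation than at 12dpa. The choice of genes at 12dpa and the shared Intact replicates bear on these medians, and no test was made of their order. Chosen on replicates 3 and 4 and measured on 1 and 2, there were 1267 higher and 1595 lower genes, with medians at 12dpa of 1.38 and -1.68. Of these, 75.5% and 81.9% kept a change of 2-fold or more.

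**Figure D3:**
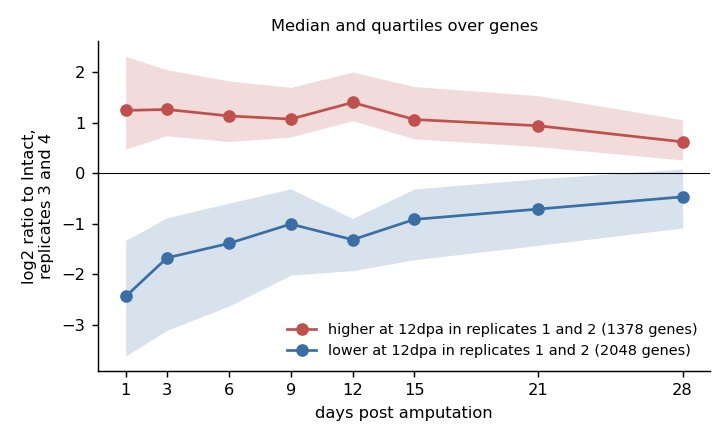
The lines give, by day after amputation, the median over genes, with bands between the quartiles, of the log2 ratio to Intact in replicates 3 and 4 of the genes chosen as higher or lower at 12dpa on replicates 1 and 2. The higher genes stand at 1.40 at 12dpa and 0.62 at 28dpa, and the lower genes go from -2.44 at 1dpa to -0.47 at 28dpa.

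Many of the genes that fell at 12dpa were next to each other in the order of tested genes along the genome. Untested annotated genes were skipped, so neighbours here can have other genes between them. Gene order, taken from the RefSeq annotation of assembly ASM307304v1, placed 17323 of the tested genes with 17309 neighbouring pairs. Both genes of a pair fell 2-fold or more in 608 pairs and both rose in 267, together 5.06% of pairs, where the counts of such genes alone give 2.26%. Runs of 3 or more neighbours that all fell numbered 136 and held 508 genes, 24.3% of the 2092 placed genes that fell 2-fold. Runs of 3 or more that rose numbered 41 and held 136 genes, 8.75% of 1554. Falls were also the more numerous, and the shares were not tested against each other. The shares in runs that the counts of falls and of rises alone would give were not worked out, so the 2 directions are not compared. The longest runs were 9 genes that fell and 5 that rose. The runs described next were picked for their length after the values were seen, so no test is given for them. Neighbouring genes that overlap or are near-identical may share reads, which was not tested.

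The run from LOC112569378 to LOC112569356 held 9 genes with log2 fold changes from -5.47 to -3.34, none with overlap between the groups, where 49.6% of all tested genes had none; as the members were picked for their falls, nothing is read from that count. Between the 9 genes lie 18 other annotated genes that were not tested. The summed level of the 9 genes was 192.6, 70.2, 97.6 and 136.6 CPM in Intact and 10.2, 9.07, 3.37 and 2.86 CPM at 12dpa. Every 12dpa library lay below every Intact library. The low level was shared with earlier times: the sum was 9.29, 11.0, 9.70 and 59.1 CPM on day 3 and 4.27, 16.4, 11.4 and 18.7 CPM on day 6, both overlapping 12dpa. It averaged 24.0 CPM on day 1, 46.3 CPM on day 9, 24.1 CPM on day 15, 66.0 CPM on day 21 and 47.8 CPM on day 28. Of these genes 6 of the 9 were called lower at 12dpa than at 9dpa and 15dpa, where 14.6% of all tested genes were. The run was picked on the same 12dpa libraries, so nothing is read from this count either. Within the run, LOC112569370 was the most abundant gene, with 43.6 ± 16.6 CPM in Intact against 3.11 ± 2.42 CPM at 12dpa. LOC112569356 fell from 24.4 ± 11.1 to 1.08 ± 0.443 CPM, and LOC112569375 from 4.50 ± 4.34 to 0.0985 ± 0.0289 CPM.

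This run sits in a longer stretch of low genes, whose ends were set by hand after the values were seen. Between LOC112569343 and LOC112569339 the annotation lists 63 genes, of which 32 were tested. At 12dpa 23 of the 32, or 71.9%, were at least 2-fold lower than in Intact, beside 12.1% of all tested genes. Another 3 were at least 2-fold higher. Of the 23, 22 were lower by 8-fold or more, as were 196 of all 17341 tested genes. As the ends were set on these falls, nothing is read from these counts. Compared with 9dpa and 15dpa together, 18 of the 32 were called lower, beside 14.6% of all tested genes, and 1 higher; the ends of the stretch were set on the same 12dpa libraries, so nothing is read from this count. The 23 genes were picked as lower at 12dpa than in Intact, so the gap between these groups in their sum was set by that choice. Their summed level was 320.5, 198.2, 181.9 and 295.9 CPM in Intact and 19.0, 15.7, 16.2 and 13.2 CPM at 12dpa. Day 9 libraries held 79.1, 76.4, 173.1 and 92.0 CPM of it, and day 15 libraries 86.8, 44.0, 64.0 and 113.3 CPM. The 12dpa libraries were below all libraries of Intact, day 9 and day 15, but not of day 3, which had 23.3, 21.0, 17.5 and 120.0 CPM. On day 6 the sum was 19.2, 41.9, 34.8 and 39.3 CPM, the lowest of them close to the highest 12dpa library, and on day 1 it was 48.1 to 82.3 CPM. At 28dpa the sum was 105.6 ± 25.4 CPM, under the Intact mean of 249.1 ± 69.3 CPM.

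**Figure D4:**
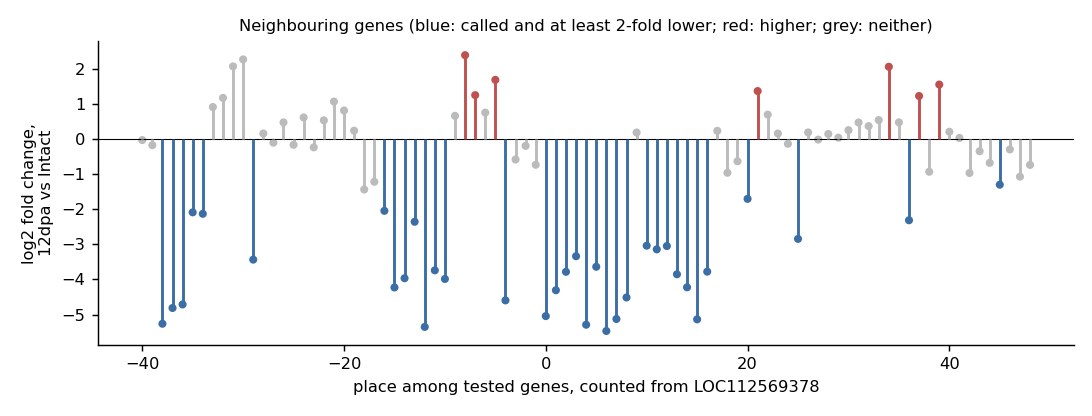
Each stem is a tested gene in its order along the assembly, up to 40 genes to either side of the run of 9, and its height is the log2 fold change at 12dpa against Intact; called changes of 2-fold or more are blue (lower) or red (higher). Of the 89 genes shown 34 are lower by 2-fold or more and 7 higher, and 23 of the lower ones lie in the stretch around the run.

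A second run of 9 genes that fell, from LOC112554654 to LOC112553826, had log2 fold changes from -3.42 to -1.27. Its summed level was 191.9, 132.0, 160.3 and 124.7 CPM in Intact and 43.5, 49.2, 41.6 and 61.5 CPM at 12dpa, without overlap. All 9 genes were called lower at 12dpa than at 9dpa and 15dpa, beside 14.6% of all tested genes. As this run was picked on the same 12dpa libraries, nothing is read from that count. The sums averaged 121.5 CPM at 9dpa and 148.6 CPM at 15dpa. The sum averaged 13.8 CPM at 1dpa and 234.6 CPM at 28dpa, and every 12dpa library lay above those of 1dpa and below those of 9dpa and 15dpa. Days 3 and 6, at 51.8 to 79.9 CPM and 49.5 to 94.9 CPM, overlapped 12dpa. The 8-gene run from LOC112574917 to LOC112575794 fell from 24.0 ± 9.48 to 4.60 ± 1.33 CPM in sum, with 6 untested annotated genes between its members. LOC112574919 alone averaged 15.1 CPM in Intact, and LOC112574929 overlapped between Intact and 12dpa. The sum at 15dpa, at 4.32 to 27.1 CPM, overlapped that at 12dpa, at 3.61 to 6.56 CPM. It also stood low early, at 2.14 ± 1.25 CPM on day 1.

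Both of the 5-gene runs that rose were of low abundance. The run from LOC112570437 to LOC112571223 had a summed level of 3.34 ± 0.656 CPM in Intact and 14.8 ± 3.06 CPM at 12dpa. The run from LOC112560101 to LOC112560621 went from 8.71 ± 2.02 to 20.1 ± 8.17 CPM and averaged 105.5 CPM at 1dpa. Its groups overlapped in sum, at 6.96 to 10.9 CPM in Intact and 10.5 to 29.6 CPM at 12dpa. The level was not particular to 12dpa, with means of 18.6 CPM at 9dpa and 14.8 CPM at 15dpa.

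**Figure D5:**
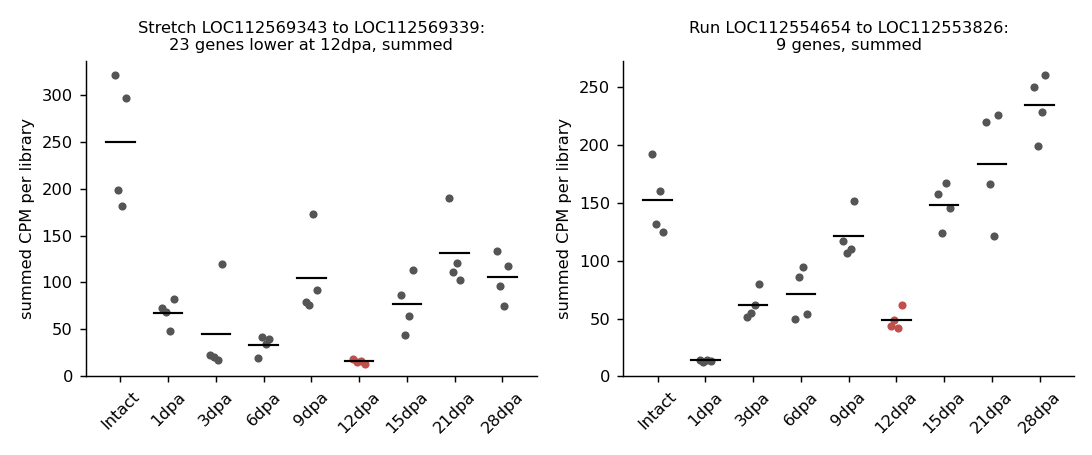
Summed CPM is shown for every library of the 9 groups, with a bar at each group's mean, for the 23 lower genes of the stretch (left) and for the run from LOC112554654 to LOC112553826 (right). The 12dpa libraries lie at 13.2 to 19.0 CPM on the left and at 41.6 to 61.5 CPM on the right, below all libraries of Intact, 9dpa and 15dpa; day 3 libraries overlap them in both panels.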

How the data were processed

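Polyadenylated RNA of eye stalks was sequenced in 36 libraries. Group and replicate number were taken from each library's label; the labels have a 6dpa group where the design text lists 7dpa, and the labels were followed. Raw counts of reads per gene, in 1 table, are what the authors deposited. STAR was named as the aligner, per the submitters' processing notes; its version, the genome build, the strand setting and the counting of shared reads were not given in the sources used here. All 21131 identifiers are symbols of a RefSeq gene table (ASM307304v1), which gives no product names and was used only for gene order. Gene lists by product or protein pattern therefore had no members and could not be tested.

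The tests used edgeR 4.0.16 in R 4.3.3. No read was counted for 615 genes; filterByExpr kept 17341, with 99.98% or more of every library's counts. After TMM scaling, 1 robust quasi-likelihood model with a mean per group was fitted to the 36 libraries together, giving 1 shared estimate of spread, and contrasts were tested 2-sided with Benjamini-Hochberg adjustment over all tested genes at 0.05. The standard error is the log2 fold change divided by the square root of F. The newer dispersion estimate of edgeR was taken because it returned the count of calls already known from an earlier treatment of these data; the older one is among the alternatives. Distances used log2 CPM with a prior count of 2. Held-out ratios compare summed counts plus 1. Intervals on count ratios are exact binomial, at 95%. The statistics were tested on simulated data.

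The comparison, the lists and the rules were chosen with earlier results of these data known. The naming rule, for identifiers with no product name, takes the 2 largest rises and the 2 largest falls among called genes whose libraries do not overlap and whose higher mean is 5 CPM or more: LOC112575956, LOC112564790, LOC112563154 and LOC112562198. The other 16 genes, the runs and the stretch were named after their values were seen, and nothing is supported with them. Replicate numbers were not used to pair libraries, since correlations of deviations between libraries of the same number were all at or below 0.03. The alternatives, in part with DESeq2 1.42.0 and limma 3.58.1, were other scalings, filters, tests and fits, thinning to the smallest library, a block for the replicate number, and each replicate left out in turn.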

Additional observations from a re-analysis of the deposited data

Results flagged for a closer look

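The highest or lowest library stood apart from the other 3 of its group in 15 of 98 groups examined by Dixon's 95% criterion. Chance gives about 1 in 20 for normally distributed values, but most groups here were CPM of genes chosen for their values. Where a single library holds all the counts, as for LOC112575956 and LOC112564790 in Intact, the criterion is always met. The number of flags is therefore not read as an excess. At 12dpa the values apart were 19.9 CPM of LOC112564790 in replicate 2, 1.25 CPM of LOC112554596 in replicate 3 and, on the low side, 0.294 CPM of LOC112569343 in replicate 2. In Intact they were 5857 CPM of LOC112559381 and 35627 CPM of LOC112562530, both in replicate 1, 1.80 CPM of LOC112562606 and 0.0733 CPM of LOC112564790, both in replicate 4, and 0.0368 CPM of LOC112575956 in replicate 2. The share of counts in the 10 most abundant genes was also apart in Intact, at 12.4% in replicate 3. At 9dpa they were 12.8 CPM of LOC112554596 and 3.99 CPM of LOC112564790. The libraries apart at 15dpa had 11.0 CPM of LOC112554596, 0.189 CPM of LOC112562198, 1.57 CPM of LOC112562606 and 708.7 CPM of LOC112576458.

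For 8 named genes the change from Intact at 12dpa differed from the mean change at 9dpa and 15dpa. This was the edgeR contrast between these times, at a Benjamini-Hochberg adjusted p below 0.05. The genes chosen by that contrast were also called in it and are left out of the 8. It called 33.9% of all tested genes, so nothing is read from the count. The change was larger in the direction of a rise, in log2 units, by 3.64 for LOC112564790, 2.06 for LOC112555734, 1.82 for LOC112563139, 1.75 for LOC112559381, 1.47 for LOC112563881, 1.29 for LOC112562530 and 0.28 for LOC112562047. LOC112563154 went the other way, with a difference of -4.90. Against 15dpa alone, 12dpa was not called different for LOC112555734, LOC112563139, LOC112559381 and LOC112562530 (edgeR, Benjamini-Hochberg adjusted p = 0.775, 0.878, 0.729 and 0.881). The 12dpa level of LOC112564790 rested largely on replicate 2. The causes were not tested.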

How the results depend on the processing

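Under the other scalings, filters, tests and fits, 9300 to 10395 genes were called at 12dpa against Intact, and 9055 to 9363 with each replicate left out. Genes called higher numbered 3987 to 5111 and 4325 to 4887, and genes called lower 4652 to 5706 and 4306 to 4785. Against 9dpa and 15dpa together they were 5508 to 6606 and 4802 to 5819. With library size alone, 2199 genes were called higher there in place of 3350 (39.9% of calls in place of 57.0%); the median of all genes then moved to -0.08, and against Intact to -0.11. Against 9dpa alone 4368 to 5831 and 3982 to 4729 genes were called, and against 15dpa alone 3922 to 6078 and 3798 to 4481. The older edgeR estimate, added after seeing the data, called 9555 and 5619 genes in the 2 main contrasts. With a replicate block, 9770 genes were called against Intact and 5958 against 9dpa and 15dpa; correlations between same-numbered libraries were -0.09, -0.08, -0.02 and 0.03, so the numbers are not taken as a pairing. No named gene reversed. LOC112562530 was called when only the compared groups were fitted (adjusted p = 0.0145, log2 fold change -0.92; 0.0145 to 0.357 over all alternatives); the cause was not tested. Limma gave log2 fold changes of 7.61 for LOC112575956, 5.84 for LOC112564790 and 5.10 for LOC112562606. Against 9dpa and 15dpa, LOC112562606 moved to 4.40 without 9dpa replicate 2, to 4.63 without 15dpa replicate 4 and to 4.70 with limma. The distance to Intact was 142.1 over all tested genes in place of 61.2 over 500. DESeq2 gave no adjusted p for 2 values. Alternatives for the gene lists were not run, and distances and held-out ratios were recomputed only with the other choice of genes or replicates. Depth limits genes of few counts: 1 CPM is about 23.1 to 34.0 counts in these libraries.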
